A study of Mus musculus with 27 samples.

Results

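The 7 genes described here are Sox9, Sox4, Pax2, Pax8, Cd24a, Prom1 and Vim, which are transcription factors, surface proteins and a cytoskeletal protein used as markers of tubule repair. They were chosen by gene symbol from the deposited expression table of 19392 genes. All 7 were in the table, and all 7 were among the 18188 genes that were above 0 FPKM in at least 3 kidneys and could be tested. FPKM, a fragment count scaled by transcript length and by the library's total, is a level corrected for gene length and for depth.

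RNA-Seq was performed on the left kidneys of 27 C57BL/6 mice, in 9 groups of 3 set by ischemia time. In the uIRIx model the right kidney was removed and the left renal pedicle was clamped on a 37 °C platform, and the left kidney was collected 24 h later. The clamp lasted 16, 18, 20, 22, 24, 26, 28 or 30 min, and the sham group, given here as 0 min, also lost its right kidney but had a clamp time of 0 min. The questions were which of the 7 genes changed with any ischemia and which between the neighbouring times of 26 and 28 min. Every group thus shared anesthesia, nephrectomy and 1 remaining kidney, and no group had 2 kidneys or no surgery. The labels name neither the age of the mice nor a batch.

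Sox9 and Sox4 encode SOX proteins, transcription factors that bind DNA through an HMG box. Sox9 is switched on in tubule cells that survive an injury and take part in regrowth, and Sox4 is a SoxC factor active in progenitors of many organs. Pax2 and Pax8 encode paired-box factors needed to form the nephron and the collecting duct, and the adult tubule keeps Pax8. Cd24a encodes a small surface glycoprotein and Prom1 encodes prominin, known as CD133, a protein of membrane protrusions, and cells carrying both have been described as tubule progenitors. Vim encodes vimentin, an intermediate filament of mesenchymal cells that tubule cells also make after injury.

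The kidneys had similar totals, with a summed level of 512453 to 554036 FPKM and 16498 to 16904 genes above 0. The table holds no read counts, and the smallest steps in the low values put the relative value of 1 fragment at 0.967 to 1.02 between kidneys. Only values close to a gene's lowest positive value entered this figure, which keeps it near 1. A larger difference in depth could therefore be missed, and absolute depth is unknown. The defining kidney markers Lrp2 and Umod were above 0 in every kidney. At 16 min, replicate 3 stood apart from its group. Its score on the first principal component was -30.2, against -11.4 and 2.66 for the other kidneys of that time and -44.7 to -36.7 for the sham kidneys. Its summed level of 15 injured tubule markers was 1677 FPKM, inside the sham range of 1101 to 2151 and far from the 9643 and 13224 of replicates 1 and 2. Its leukocyte marker sum, 51.8 FPKM, was also inside the sham range of 39.9 to 56.3. For 14 proximal tubule markers its sum was 31470 FPKM, between the 36139 and 24360 of replicates 1 and 2. The sham range there was higher, 53253 to 56432. For 14 fibroblast and mural cell markers its sum was 184 FPKM, above the sham range of 73.4 to 85.8. Replicate 3 was also the lowest of its group for Sox9, Sox4, Pax2, Pax8, Cd24a, Prom1 and Vim, and without it 4 of the 7 genes were DEGs at 16 min in place of 2.

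Promoter sequence was printed for Sox4, a gene that rose, and Pax8, a gene with no change past the thresholds used here, because the RefSeq table of GRCm38.p6 gives each of them 1 window directly upstream of its annotated start. The Sox4 window is chr13:28953714-28953949 on the minus strand, and the Pax8 window is chr2:24475600-24475849 on the minus strand. Capitals mark matches on either strand to CCAAT, the core of the CCAAT box, or to GGGCGG, the GC box. Sox4 held 3 CCAAT matches and no GC box, and Pax8 held 1 of each.
Sox4: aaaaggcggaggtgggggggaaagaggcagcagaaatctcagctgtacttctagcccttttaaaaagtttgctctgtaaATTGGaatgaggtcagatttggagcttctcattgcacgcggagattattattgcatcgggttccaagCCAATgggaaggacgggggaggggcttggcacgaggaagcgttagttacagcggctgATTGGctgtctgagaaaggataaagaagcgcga
Pax8: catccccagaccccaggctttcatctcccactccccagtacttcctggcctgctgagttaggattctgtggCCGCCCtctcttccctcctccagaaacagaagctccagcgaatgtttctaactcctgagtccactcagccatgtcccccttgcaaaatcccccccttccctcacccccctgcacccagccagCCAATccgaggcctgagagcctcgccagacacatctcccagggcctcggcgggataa

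In the Sox4 window the CCAAT matches lay 33, 90 and 157 bases upstream of the start. Of 32851 RefSeq promoter windows of 250 bases, slightly longer than the 236 bases of Sox4, 33.8% held at least 1 CCAAT match and 2.79% held at least 3. GGGCGG was found in 32.7% of windows. The letters TGANTCA (the AP-1 element), AACAAT (a SOX element) and TATAAA were in neither printed sequence, and they occurred in 6.75%, 9.42% and 12.4% of all windows, searched on both strands. A match describes letters only.

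Of the 7 genes, Sox9, Sox4, Cd24a and Vim rose after ischemia, and Pax2, Pax8 and Prom1 were DEGs at no time. A DEG, a differentially expressed gene, had a Benjamini-Hochberg adjusted p under 0.05 and an absolute log2 fold change above 1 in limma, fitted to quantile normalized log2(FPKM + 1) over all 27 kidneys. Against 0 min, 2 of the 7 genes were DEGs at 16 min, beside 2.25% of all tested genes in either direction. The next 5 times had 1, 1, 2, 1 and 2 DEGs among the 7 genes, beside 3.06%, 2.51%, 3.29%, 3.12% and 3.77% of all genes. The count was 4 after 28 min, where 8.48% of all genes were called, and again 4 after 30 min, where 10.7% were. The members called were all higher than sham. The median log2 fold change over the 7 genes went from 0.70 after 16 min and 0.47 after 26 min to 1.16 after 28 min and 1.60 after 30 min, while the median over all genes stayed between -0.011 and 0.00077. Quantile normalization gives every kidney the same distribution of levels, which by itself holds the median over all genes near 0. By the adjusted p alone, without the fold threshold, far more genes of the table passed. The shares of all genes were 19.0%, 27.8%, 22.8%, 28.8%, 28.3%, 30.1%, 48.2% and 52.3% from 16 to 30 min, and 4, 3, 3, 3, 3, 3, 4 and 6 of the 7 genes passed.

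**Figure D1:**
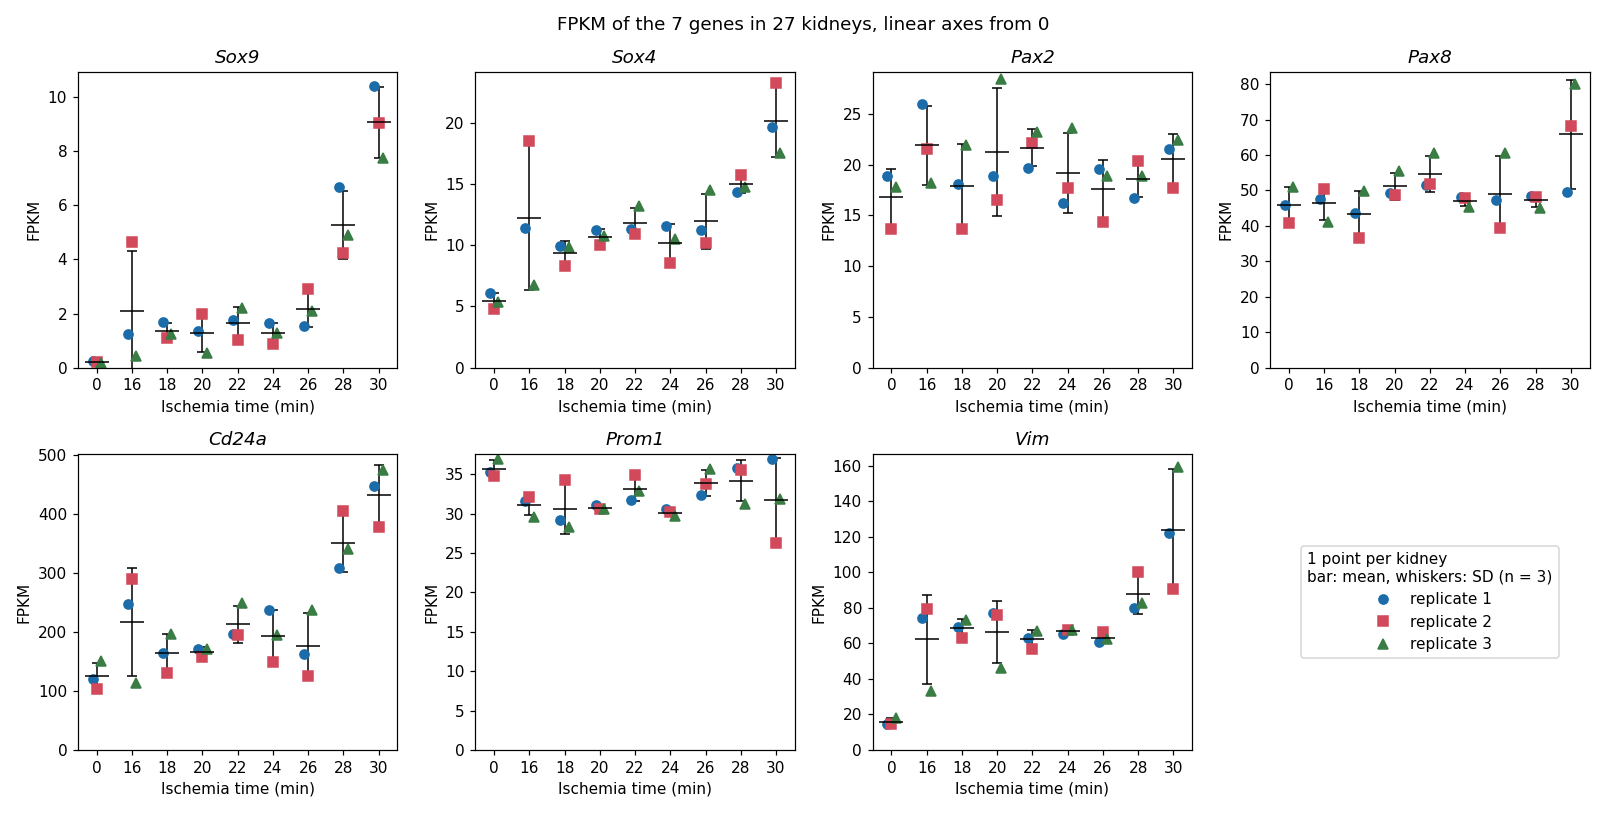
Level of each of the 7 genes in FPKM (linear vertical axis from 0) against ischemia time in min, with 1 point per kidney, a bar for the mean and whiskers for the SD (n = 3). The lower whisker of Sox9 at 16 min is clipped at 0. Sox9, Sox4, Cd24a and Vim were highest on average at 30 min, and Pax2, Pax8 and Prom1 had groups that overlapped from each time to the next in order of level.

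Sox9 lies at chr11:112782224-112787760 on the plus strand of GRCm38, with 3 exons in its longest coding transcript. It was the least abundant of the 7 genes in sham kidneys, at 0.25, 0.22 and 0.16 FPKM. After 16 min it read 1.25, 4.63 and 0.43, and over the 18 kidneys of 16 to 26 min its lowest, median and highest levels were 0.43, 1.45 and 4.63. All 18 were above the highest sham kidney. The 3 kidneys at 26 min were at 1.55, 2.91 and 2.10, those at 28 min at 6.67, 4.24 and 4.90, and those at 30 min at 10.4, 9.04 and 7.77. No kidney at 28 min fell to the level of 26 min, and none at 30 min fell to the level of 28 min.

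The mean level of Sox9 thus went from 0.21 ± 0.0458 FPKM at 0 min to 2.19 ± 0.684 at 26 min, 5.27 ± 1.26 at 28 min and 9.07 ± 1.32 at 30 min (SD, n = 3). The ratio of means to sham was 7.81 over the 16 to 26 min kidneys, 25.1 at 28 min and 43.2 at 30 min. On the log2(FPKM + 1) scale, which shrinks the change of a gene this low, the log2 fold change was 2.30 at 28 min (SE 0.33, limma adjusted p = 9.4e-06) and 3.0 at 30 min (adjusted p = 2.3e-07). From 16 to 26 min the estimates lay between 0.80 and 1.32, with DEG calls at 16 min (1.07, adjusted p = 0.028), 22 min (1.05, adjusted p = 0.021) and 26 min (1.32, adjusted p = 0.0047). The estimates at 18, 20 and 24 min were 0.85, 0.80 and 0.81 with adjusted p of 0.061, 0.087 and 0.071, and their mean levels were 1.34, 1.28 and 1.27 FPKM, against 2.10, 1.66 and 2.19 FPKM at 16, 22 and 26 min. Without replicate 3 of 16 min, the kidney at 0.43 FPKM, the estimate at 16 min was 1.49 with a limma adjusted p of 0.0015. The call was lost without replicate 2, the kidney at 4.63 FPKM (0.54, adjusted p = 0.21), and also without any 1 of the sham kidneys (adjusted p = 0.057 to 0.071). With a pseudocount of 0.1 FPKM, Sox9 was also a DEG at 18, 20 and 24 min, at 1.96, 1.82 and 1.89.

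**Figure D2:**
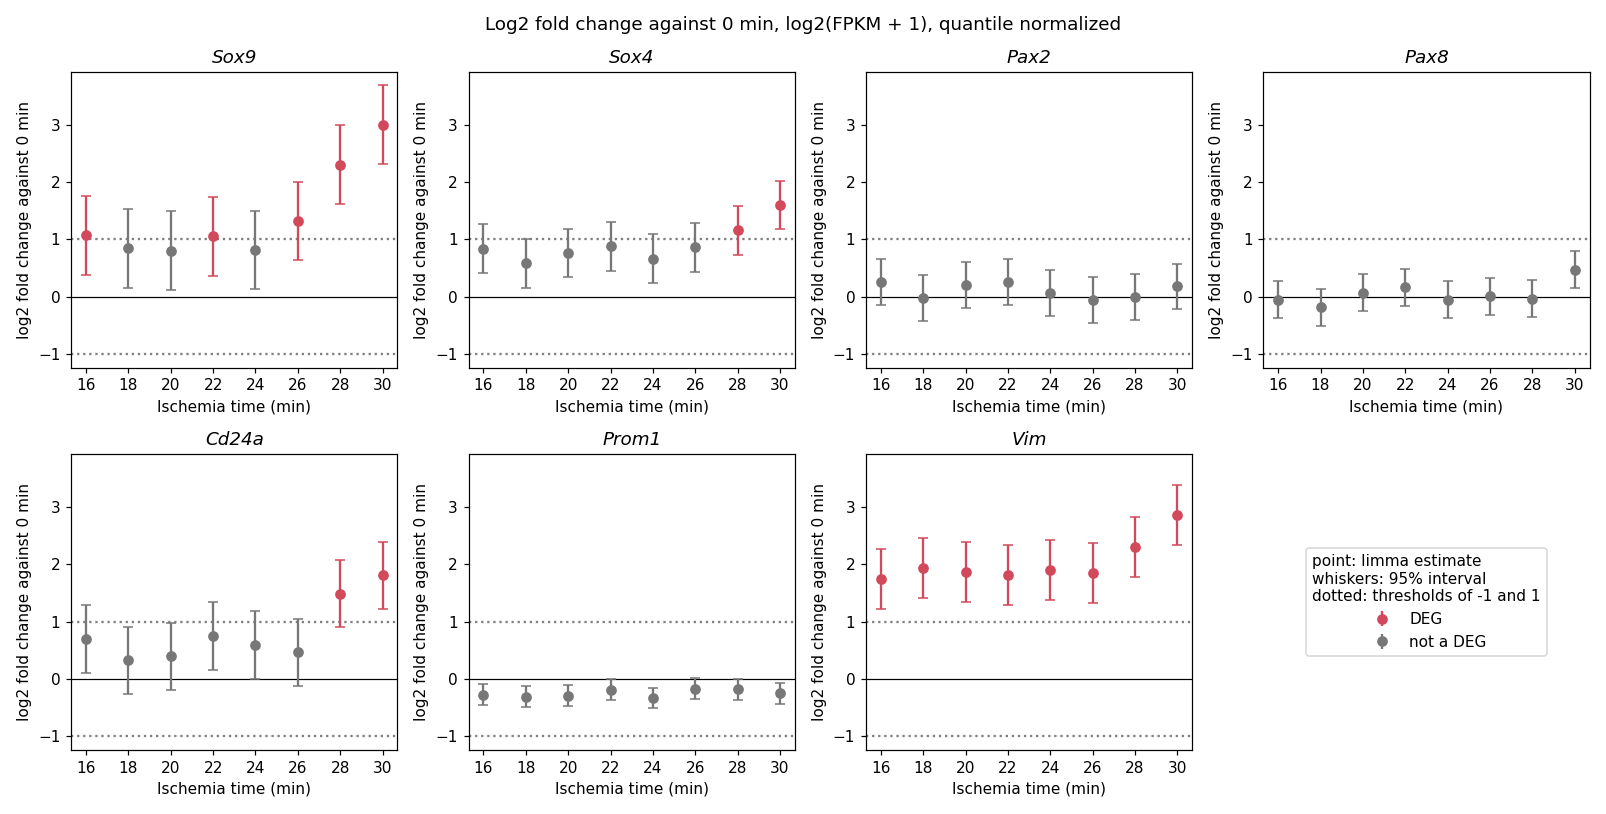
Log2 fold change of each gene against 0 min (vertical axis, log2(FPKM + 1) scale, limma estimate with its 95% interval) at each ischemia time in min, with DEGs in red and the thresholds of -1 and 1 dotted. Vim was a DEG at all 8 times, Sox9 at 5, Sox4 and Cd24a at 28 and 30 min, and Pax2, Pax8 and Prom1 at none.

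Sox4 is a gene of 1 exon at chr13:28948919-28953713 on the minus strand, and the promoter printed above lies directly before it. Its sham levels were 6.12, 4.83 and 5.37 FPKM. The 16 min kidneys stood at 11.4, 18.6 and 6.78. Those of 28 min read 14.4, 15.8 and 14.8, and those of 30 min read 19.6, 23.3 and 17.5. All 18 kidneys of 16 to 26 min were above every sham kidney, and the highest kidney at 16 min was above all those at 28 min. The rise was therefore already present at the shortest clamp time, with a mean of 11.1 ± 2.55 FPKM over 16 to 26 min (SD, n = 18), 2.03 times sham.

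Its mean was 15.0 ± 0.713 FPKM at 28 min and 20.1 ± 2.91 at 30 min (SD, n = 3), 2.76 and 3.70 times sham. The log2 fold change was 1.16 at 28 min (SE 0.20, limma adjusted p = 8.8e-05) and 1.60 at 30 min (adjusted p = 1.5e-06). Between 16 and 26 min it ranged from 0.58 to 0.88, with adjusted p of 0.0029 to 0.037, below the fold threshold of 1 at each of these times. With TPM, FPKM rescaled to a constant sum in place of quantile normalization, Sox4 was a DEG at 16, 22 and 26 min too (1.002, 1.05 and 1.08), and with no quantile normalization at 26 min (1.001). Without replicate 3 of 16 min, Sox4 became a DEG at 16 min with an estimate of 1.15. In the annotation the non-coding gene Gm26735 lies over Sox4 on the opposite strand, and 54.1% of the 50-base words of the Sox4 transcript occur in it. Since strandedness is not given in the sources used here, reads from this pair cannot be told apart.

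Pax2 lies at chr19:44756045-44837871 on the plus strand, with 10 exons. Its level was 18.9, 13.6 and 17.9 FPKM in sham kidneys, 16.7, 20.3 and 18.9 at 28 min and 21.5, 17.7 and 22.5 at 30 min. The groups overlapped at every step of the ordered levels. The log2 fold change was 0.0016 at 28 min, with a 95% interval of -0.40 to 0.40, and 0.18 at 30 min, with an interval of -0.22 to 0.58. These intervals leave out a change of 1 in either direction, and they do not show equal levels.

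Pax8 lies at chr2:24420560-24475599 on the minus strand, with 12 exons. In sham kidneys it was at 45.9, 41.0 and 50.9 FPKM, and at 28 min at 48.4, 48.3 and 45.2. The kidneys at 30 min spread from 49.5 to 68.2 and 80.0, so that the lowest of them lay within the sham range. The mean was 45.9 ± 4.95 FPKM at 0 min, 47.3 ± 1.83 at 28 min and 65.9 ± 15.4 at 30 min (SD, n = 3). The estimate at 30 min was 0.47 (SE 0.15, limma adjusted p = 0.014), below the fold threshold. It rested on replicate 3 of 30 min, without which it was 0.29 with an adjusted p of 0.12. That kidney also had a summed level of 3123 FPKM for 14 markers of the loop, distal tubule and collecting duct, against 941 and 977 in the other kidneys of 30 min, and their part in the Pax8 level was not tested. The opposite-strand gene Gm13415 shares 10.8% of the 50-base words of Pax8.

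Cd24a lies at chr10:43578284-43584265 on the plus strand and has 2 exons. It was the most abundant of the 7 genes, at 119.8, 103.8 and 150.4 FPKM in sham kidneys. After 16 min it read 248, 289 and 113, and after 26 min 163, 126 and 237. It then read 308, 406 and 341 after 28 min and 447, 378 and 474 after 30 min. Over 16 to 26 min, 14 of 18 kidneys were above the highest sham kidney, and each kidney at 28 and 30 min was above all 18. The kidneys of 28 and 30 min overlapped.

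The mean of Cd24a was 125 ± 23.7 FPKM at 0 min (SD, n = 3), 188 ± 48.2 over 16 to 26 min (SD, n = 18), 352 ± 49.9 at 28 min and 433 ± 49.8 at 30 min (SD, n = 3). The last 2 were 2.82 and 3.47 times sham. The log2 fold change was 1.49 at 28 min (SE 0.28, limma adjusted p = 1.9e-04) and 1.81 at 30 min (adjusted p = 1.7e-05). From 16 to 26 min the estimates ran from 0.32 to 0.75, and the adjusted p was between 0.0505 and 0.44. Without replicate 3 of 16 min, Cd24a was a DEG at 16 min (1.10, adjusted p = 0.0023). The annotated gene Gm6212 shares 3.9% of the 50-base words of Cd24a and is not listed in the table used here.

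Prom1 lies at chr5:43993620-44102032 on the minus strand, with 25 exons. Its sham levels were 35.3, 34.8 and 36.9 FPKM, and 16 of the 18 kidneys of 16 to 26 min were below the lowest of them. The mean was 35.7 ± 1.11 FPKM at 0 min (SD, n = 3) and 31.6 ± 2.05 over 16 to 26 min (SD, n = 18), a ratio of 0.886. The kidneys at 28 min were at 35.8, 35.6 and 31.3, and those at 30 min at 36.9, 26.2 and 31.9, which overlapped sham at both times. The log2 fold changes lay between -0.33 and -0.17 at all 8 times, with an adjusted p under 0.05 at 16, 18, 20, 24 and 30 min in limma and none near the fold threshold. These small decreases depended on the scaling. Without replicate 3 of 16 min the value at 16 min was -0.25 with an adjusted p of 0.065. With TPM the adjusted p was 0.17, 0.056, 0.10, 0.061 and 0.11 at those 5 times. At 30 min the decrease rested on replicate 2, without which it was -0.12 with an adjusted p of 0.21.

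Vim lies at chr2:13573927-13582826 on the plus strand, with 9 exons. Its level was 14.4, 14.8 and 18.1 FPKM in sham kidneys and 74.1, 79.5 and 33.3 at 16 min. Over the 18 kidneys of 16 to 26 min every level was above sham, and the 3 kidneys at 26 min were at 60.5, 66.3 and 62.7. At 28 min they were at 80.2, 100.1 and 82.7, and at 30 min at 122, 90.5 and 159. The level was thus raised from the shortest clamp time on, and the levels of 18 to 26 min overlapped each other.

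The mean of Vim was 15.8 ± 2.0 FPKM at 0 min (SD, n = 3), 64.9 ± 11.2 over 16 to 26 min (SD, n = 18), 87.7 ± 10.8 at 28 min and 124 ± 34.5 at 30 min (SD, n = 3). These levels were 4.12, 5.56 and 7.87 times sham. Vim was a DEG at every time, with log2 fold changes of 1.74 to 1.94 from 16 to 26 min, 2.30 at 28 min (SE 0.25, limma adjusted p = 3.7e-07) and 2.86 at 30 min (adjusted p = 1.2e-08). The call at 16 min was lost when only the kidneys of 0 and 16 min were fitted (adjusted p = 0.10), and without replicate 3 of 16 min the estimate was 2.11 (adjusted p = 1.5e-06). The highest Vim level was in replicate 3 of 30 min, whose summed level of 14 fibroblast and mural cell markers, 604 FPKM, was also above the 275 and 188 of the other kidneys of that time. In whole kidney RNA, more cells of a type and more RNA per cell cannot be told apart, here and for each of the other genes.

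On the linear FPKM scale, the 4 genes that rose differed in how much of their rise was present before 28 min. Taking the increase of the mean from 0 to 30 min as the whole, the kidneys of 16 to 26 min had reached 45.4% of it for Vim, 38.2% for Sox4, 20.6% for Cd24a and 16.1% for Sox9. At 28 min the shares were 66.4%, 65.0%, 73.7% and 57.1%. These shares are descriptions of FPKM means, and the differences between genes were not tested. Their order depends on the scale. The ratio to sham was 7.81 at 16 to 26 min and 43.2 at 30 min for Sox9, and 1.51 and 3.47 for Cd24a. On a log scale the share of Sox9 is therefore not below that of Cd24a.

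Between 26 and 28 min, 1 of the 7 genes was a DEG, Cd24a, where 1.50% of all genes were. Its log2 fold change was 1.02 (limma adjusted p = 0.015), just past the fold threshold. The call was lost with TPM (0.996) and without replicate 1 or 2 of 26 min (0.97 and 0.82) or replicate 2 of 28 min (0.90). The estimate for Sox9 was 0.98 with an adjusted p of 0.043 and a 95% interval of 0.29 to 1.66, just below the fold threshold, and leaving out any 1 of these 6 kidneys put its adjusted p between 0.0505 and 0.16. By the adjusted p alone, Cd24a and Sox9 passed beside 19.3% of all genes. The estimates for Sox4 and Vim were 0.30 and 0.46, with adjusted p of 0.35 and 0.23.

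Between 28 and 30 min none of the 7 genes was a DEG in limma, beside 1.05% of all genes, and 4 had an unadjusted p under 0.05, as had 26.8% of all genes. Sox9, Sox4 and Vim had estimates of 0.70, 0.44 and 0.56 with adjusted p of 0.18, 0.17 and 0.15. By the adjusted p alone Pax8 passed (0.50, adjusted p = 0.035), beside 13.2% of all genes. That call was lost without replicate 3 of 30 min (0.32, adjusted p = 0.25), without replicate 2 of that time or any 1 kidney of 28 min, with no quantile normalization, and when only these 2 times were fitted (adjusted p = 0.22). Along the linear trend from 16 to 26 min none of the 7 genes was called at an adjusted p under 0.05, beside 0.0110% of all genes, and none had an unadjusted p under 0.05, beside 8.32% of all genes. The slope of Sox9 was 0.020 per min on the log2 scale and that of Vim 0.0054 per min, with adjusted p of 0.91 and 0.98.

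**Figure D3:**
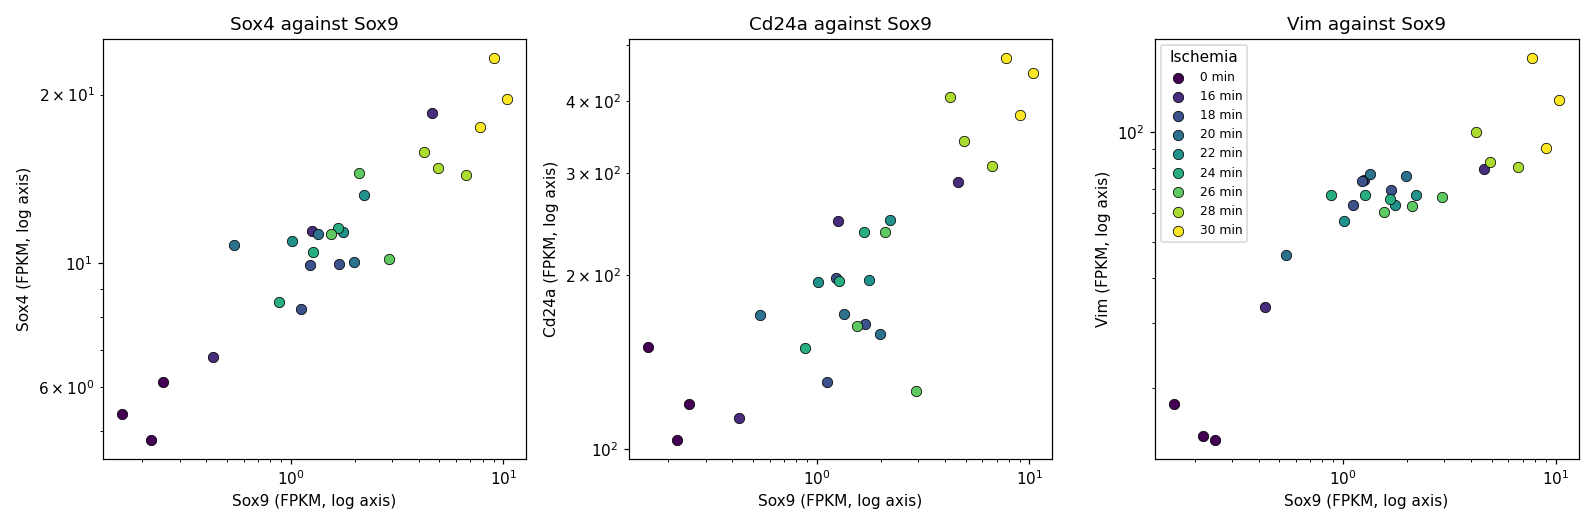
Level of Sox4, Cd24a and Vim (vertical, FPKM, log axis) against that of Sox9 (horizontal, FPKM, log axis), with 1 point per kidney coloured by ischemia time. Sham kidneys lie at the left and the 28 and 30 min kidneys toward the upper right, while on the vertical axes some kidneys of 16 to 26 min overlap sham for Cd24a and 1 kidney of 16 min overlaps the 30 min kidneys for Sox4.

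Across the 27 kidneys the log2 levels of Sox9 and Sox4 had a Pearson r of 0.90, and within the 18 kidneys of 16 to 26 min it was 0.74. Sox9 and Cd24a had an r of 0.86 over all kidneys and 0.51 within 16 to 26 min. For Sox9 and Vim the values were 0.79 and 0.64, and for Sox4 and Cd24a 0.89 and 0.87. Pax2 and Pax8 had an r of 0.43 and 0.58, while Sox9 and Pax2 had -0.04 and -0.24. These are descriptions. The 27 kidneys share the ischemia groups, and all values of a kidney come from 1 library.

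By the same measure over 27 kidneys, Runx1 and Coro1c were among the genes of the whole table whose pattern was most like Sox9, each at 0.97. Runx1 encodes a transcription factor and Coro1c an actin-binding coronin. Nearest to Sox4 were Sfn (0.95), Rflnb (0.94) and Cldn4 (0.94), of which Sfn encodes 14-3-3 sigma and Cldn4 a tight junction claudin. Nearest to Cd24a were Itga3 (0.96), an integrin subunit, Grp (0.96), a secreted peptide, and Serinc2 (0.95). Tmsb10, Tpm1 and Ckap4 were nearest to Vim, each at 0.97, and the first 2 encode proteins that bind actin. For Pax2 they were Muc20, Fxyd4 and Proser2 (0.84, 0.84 and 0.83), for Pax8 Ehf, Sh3bp4 and Bag3 (0.83, 0.82 and 0.81) and for Prom1 Cnot2, Eif4ebp2 and Kdm6a (0.78, 0.75 and 0.75).

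The rest of the SOX and PAX families held no DEG at 28 or 30 min, where 8.48% and 10.7% of all genes were DEGs. So few genes cannot set the lack of a DEG apart from these shares. For the counts that follow, 53.2% and 56.7% of all genes had an unadjusted p under 0.05 at 28 and 30 min, and the shares at an adjusted p under 0.05 were the 48.2% and 52.3% given earlier. The table lists 17 other SOX genes, of which 14 could be tested. In limma none was a DEG at these times, with 4 at an unadjusted p under 0.05 at each time and 4 and 3 at an adjusted p under 0.05. The median log2 fold change of the 14 was 0.01 at 28 min and 0.13 at 30 min, and their summed level was 31.4 to 34.1 FPKM in sham kidneys and 36.4 to 47.0 at 30 min. Of 7 other PAX genes 5 were in the table and tested, and none was a DEG, with 1 at an unadjusted and at an adjusted p under 0.05 at both times. The summed level of these 5 was 0.35 to 0.48 FPKM in sham kidneys, 0.19 to 0.38 at 28 min and 0.22 to 0.31 at 30 min. At such levels the fold threshold was out of reach on the log2(FPKM + 1) scale, so the lack of a DEG says nothing about them.

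Lists of development and signalling genes were counted by the same rule, beside 8.48% and 10.7% of all genes that were DEGs at 28 and 30 min. The counts of the development, Notch and Wnt lists were no higher than these shares. Of 21 regulators of kidney development, 1 was lower at 28 min, Lhx1, a LIM homeobox factor of the early nephron, at -1.09 (adjusted p = 1.3e-05), and 2 were lower at 30 min. None of 15 Notch pathway genes was a DEG at 28 or 30 min in limma, although 6 and 10 had an unadjusted p under 0.05, and as many an adjusted p under 0.05, near the shares over all genes. Of 14 Wnt targets and receptors none was called at 28 min, with 5 at an unadjusted p under 0.05, and 1 was lower at 30 min. Among 10 genes, made of targets of the co-activator YAP together with Yap1 itself and Wwtr1, 4 were higher at 28 min. They included Ccn1 (3.20), Ankrd1 (2.19) and Ccn2 (1.63), which encode 2 matricellular proteins and a nuclear ankyrin-repeat protein. Among 9 intermediate filament and prominin genes other than Vim and Prom1, 2 were higher at 28 min, the lamin genes Lmnb1 (1.68) and Lmna (1.46), and 3 at 30 min.

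**Figure D4:**
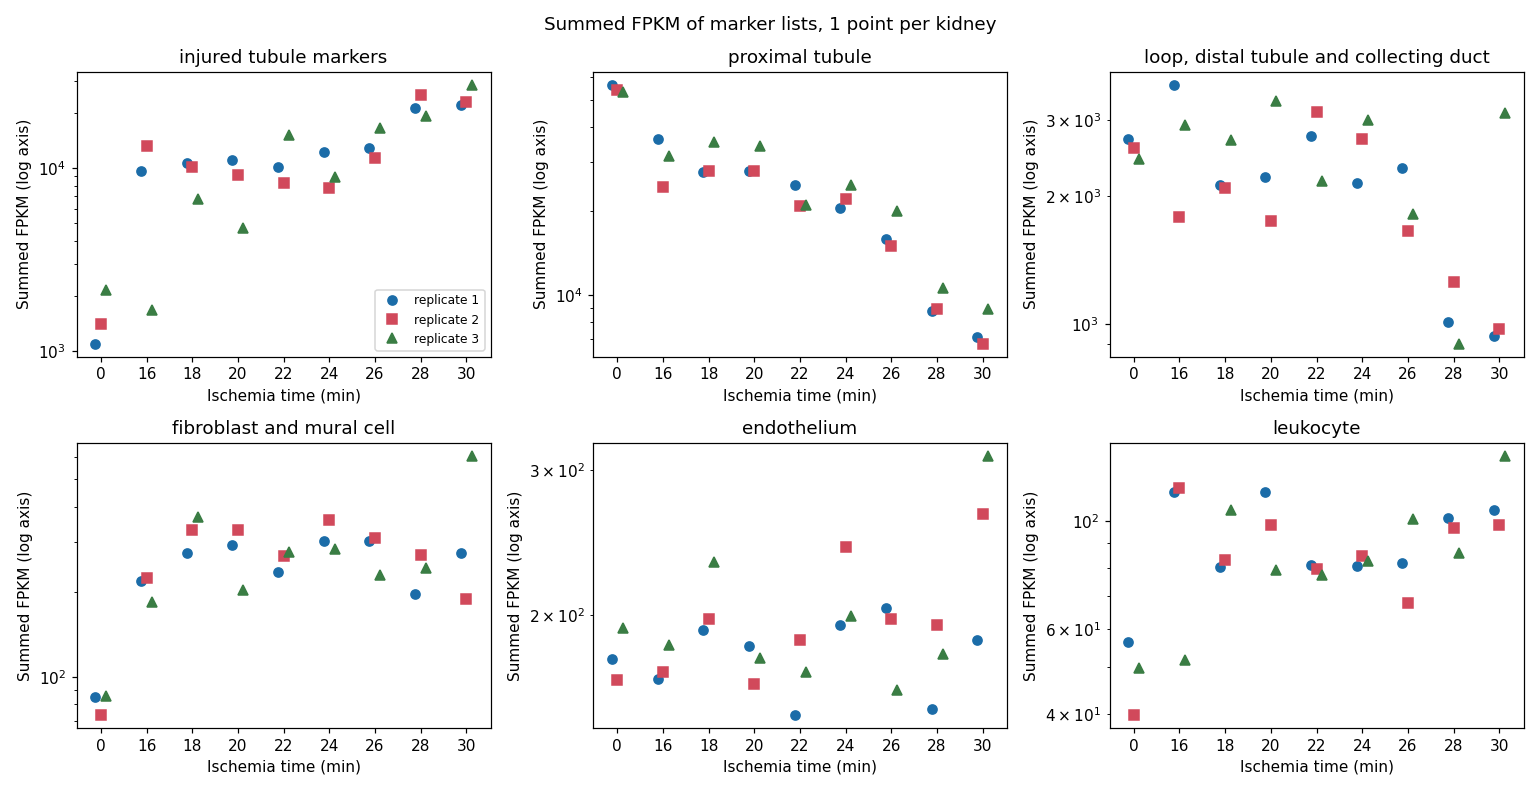
Summed level of 6 lists of marker genes (FPKM, log axis) against ischemia time in min, with 1 point per kidney. The sum of injured tubule markers was higher in every kidney of 28 and 30 min than in any sham kidney. That of proximal tubule markers, which follows the most abundant genes of the list, was lower in every kidney of 16 to 30 min than in any sham kidney. The kidney of 16 min marked as replicate 3 lies in the sham range for the first list.

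Markers of several cell types changed in the same kidneys. Beside the DEG counts here and in the next paragraph, 2.25%, 8.48% and 10.7% of all genes were DEGs at 16, 28 and 30 min. Of 15 injured tubule markers, 9 were higher at 16 min (11 without replicate 3), 14 at 28 min and 12 at 30 min. At 28 min they were led by Havcr1 (7.55), Krt20 (5.65) and Lcn2 (5.16), which encode kidney injury molecule 1, a keratin and lipocalin-2. Of 14 proximal tubule markers 1 was lower at 16 min, also without replicate 3, 8 at 28 min and 10 at 30 min. Their summed level was 53253 to 56432 FPKM in sham kidneys and already lower, 15030 to 36139, in the kidneys of 16 to 26 min. It was 8793 to 10622 at 28 min and 6721 to 8910 at 30 min. Of 14 loop, distal tubule and collecting duct markers 8 were lower at 28 min and 6 at 30 min. These lists moved in the same libraries as Sox9, Sox4 and Cd24a, and their part in the levels of the 3 genes was not tested.

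For Vim the mesenchymal and immune lists are given beside it. Of 14 fibroblast and mural cell markers 7 were higher at 16 min, with or without replicate 3, and 6 at 28 min, including the collagen genes Col1a1 (2.72) and Col3a1 (2.23) and the smooth muscle gene Tagln (2.39), and 1 was lower. At 30 min 8 were higher and 1 lower. Their summed level was 73.4 to 85.8 FPKM in sham kidneys, 184 to 368 at 16 to 26 min, 196 to 269 at 28 min and 188 to 604 at 30 min. Of 18 leukocyte markers 3 were higher and 1 lower at 28 min, and 6 were higher and 1 lower at 30 min, with a summed level of 39.9 to 56.3 FPKM in sham kidneys, 86.0 to 101 at 28 min and 98.2 to 136 at 30 min. Of 10 erythroid and urothelial markers 1 was higher at 28 min, the keratin gene Krt5 (1.95), and 6 at 30 min, and of 6 podocyte markers 1 was higher at 30 min. None of 10 endothelial markers was a DEG at 28 or 30 min in limma, with 2 and 6 at an unadjusted p and 1 and 6 at an adjusted p under 0.05. Their median log2 fold change was -0.14 at 28 min and 0.54 at 30 min, and 0.63 between 28 and 30 min, where 8 had an unadjusted p under 0.05. Their summed level was 167 to 193 FPKM in sham kidneys and 187 to 312 at 30 min. The defining markers Pdgfrb, Pecam1 and Ptprc of these lists were above 0 in every kidney, and the part of these cells in the Vim level was not tested.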

How the data were processed

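Total RNA of 27 mouse kidneys was sequenced on the DNBSEQ platform. The authors deposited FPKM per gene and kidney, linear and rounded to 2 decimals, and the submitters' processing notes name Bowtie2, RSEM, DESeq2 and GRCm38.p6 without versions or roles. The annotation is not given in the sources used here. Groups follow the labelled ischemia times, and replicates were different mice. Values were taken as log2(FPKM + 1), quantile normalized and fitted in limma 3.58.1 (R 4.3.3) with 1 mean per time, over genes above 0 FPKM in at least 3 kidneys. The step was tested on simulated data. Each time was compared with 0 min, 28 with 26 min, 30 with 28 min, and a linear trend was taken over 16 to 26 min. All comparisons with 0 min share the sham kidneys. Named genes were the 7 members, for each the 3 genes with the highest correlation, up to 3 genes per list called at 28 min with the largest change, and defining markers. Some of these items are left out of the text. Members and gene lists were chosen with earlier results of these data known. Gene positions are from GENCODE vM21 on GRCm38 and promoters from RefSeq. Figures used matplotlib 3.10.9. Alternatives were no quantile normalization, a pseudocount of 0.1 FPKM, TPM, a filter of 1 FPKM and no filter on low values. Further ones were an intensity trend in limma's eBayes step, a fit of only the groups compared, a replicate block and leaving out each kidney. Leaving out replicate 3 of 16 min from comparisons without that time, and from the 16 min counts of the gene lists, was added after seeing the data.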

Additional observations from a re-analysis of the deposited data

How the results depend on the processing

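With a pseudocount of 0.1 FPKM the count of DEGs over all genes against 0 min was 795, 1077, 926, 1154, 1109, 1318, 2626 and 3276 from 16 to 30 min, in place of 410, 557, 457, 599, 567, 686, 1542 and 1950, and it was 515 and 425 for 28 against 26 and 30 against 28 min, in place of 272 and 191. Of the 7 genes described (the members), 2 were then called at 18, 20 and 24 min, as with TPM, which called 3 at 16, 22 and 26 min and left 0 members for 28 against 26 min. A filter of 1 FPKM left 1 member at 16 and at 22 min. When only the groups compared were fitted, 16 min had 8 DEGs and 0 members, 28 against 26 min had 0 members, 30 against 28 min had 0 DEGs and the trend called 0 genes. Leaving out 1 kidney gave 1 to 4 members and 287 to 622 DEGs at 16 min, 1 to 2 members at 20 and 22 min, 0 to 1 members for 28 against 26 min, 83 to 339 DEGs for 30 against 28 min and 0 to 92 genes for the trend, with 92 without replicate 2 of 16 min. At 28 and 30 min against 0 min the count of members was 4 under each alternative run. No member's called value changed sign. Where a count changed, the cause was not tested, and the fits that leave some kidneys out also hold a smaller number of them. The labels do not say that the same replicate numbers pair the mice. Over 108 pairs of kidneys with the same number, the correlation of deviations had a median of -0.0087, and 25 were over 0.1. The range was -0.42 to 0.48, and pairs with different numbers had a median of -0.01. A median near 0 cannot exclude that some kidneys shared a batch. A replicate block gave 9 genes for the trend in place of 2. A value rests on 3 mice per time, and absolute depth is unknown.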
